A study of Mus musculus with 12 samples.

Results

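The 8 genes described here make, supply or break down the galactolipids of myelin, and they were followed across 12 mouse cortex libraries. They were chosen by gene symbol from the FPKM table (fragments counted on a transcript, divided by its length in kilobases and by the mapped fragments of the library). All 8 were found among the 23548 rows left after duplicates were removed, and all 8 were among the 14115 rows tested, those whose mean reached 0.5 FPKM. No member was listed at 0 in any library. Ugt8a, Fa2h, Gal3st1 and Cers2 act in synthesis, Aspa supplies acetate, and Galc, Arsa and Psap act in lysosomal breakdown.

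Galactosylceramide and its sulfated form, sulfatide, are the characteristic glycolipids of the myelin sheath and are made by oligodendrocytes as they mature. Ceramide with a very long acyl chain, often 2-hydroxylated, receives galactose from UDP-galactose and may then be sulfated. In the lysosome the sulfate and then the galactose are removed again with the help of saposins, and human deficiency of these steps causes the leukodystrophies of metachromatic and Krabbe type.

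Each group held 3 C57BL/6 mice at postnatal day 16, and each library came from the cortex of 1 mouse. Dnmt1 CKO mice (conditional knockout, Olig1cre/+;Dnmt1flox/flox) were set against Dnmt1 control littermates (Olig1+/+;Dnmt1flox/flox), and Dnmt3a CKO mice (Olig1cre/+;Dnmt3aflox/flox) against Dnmt3a control littermates (Olig1+/+;Dnmt3aflox/flox). All mice of a line, the controls included, carried 2 floxed alleles of the target gene. The comparison within a line asks how the transcripts change when a DNA methyltransferase is deleted in cells that express cre from the Olig1 locus, which is active in the oligodendrocyte lineage. In CKO mice only, 1 of the Olig1 alleles carries cre, so loss of the target and the altered Olig1 locus cannot be told apart within a line. Whole cortex was measured, and fewer oligodendrocytes and less RNA per oligodendrocyte cannot be told apart in such bulk samples.

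FPKM sums ran from 342274 to 417856 per library, and relative depth estimated from steps between low values ran from 0.857 to 1. The read number behind a value is unknown. Dnmt1 itself averaged 10.2 ± 0.435 FPKM (SD, n = 3) in its controls against 8.49 ± 1.06 FPKM in the CKO cortices, a difference that did not pass the test (log2 fold change −0.27, limma adjusted p = 0.29). By staining, the paper reports that CKO oligodendrocyte nuclei lacked the targeted enzyme, while nuclei of astrocytes and neurons kept it. The recombination rate it cites is a lower bound short of complete deletion. Dnmt3a was at 13.6, 14.2 and 15.4 FPKM in the Dnmt3a CKO libraries and at 31.1, 16.9 and 28.7 FPKM in the Dnmt3a controls. The library labelled Dnmt3a control replicate 2 thus lay close to the CKO libraries in its targeted gene. Its Olig1 level was 49.8 FPKM, against 48.4 and 44.1 FPKM in the other Dnmt3a controls and 30.6 to 38.8 FPKM in the Dnmt3a CKO libraries, so at the cre locus it lay with the controls. The calls of members and the counts of called pathway genes that use this library are given with and without it. Some other values that use it, such as the order of group means and the Olig1 test, are given with it only. Ddx3y, a gene of the Y chromosome, was at 10.2 to 12.8 FPKM in 9 libraries and at 0.0165 to 0.0365 FPKM in replicate 3 of Dnmt1 control, Dnmt3a control and Dnmt3a CKO, so the Dnmt1 CKO group alone had no library of the latter kind.

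The members lie on 6 chromosomes of GRCm38 (mm10), with exons counted in the longest annotated transcript. Ugt8a (UDP-galactose:ceramide galactosyltransferase) spans chr3:125865271-125938619 on the minus strand with 5 exons. Fa2h (fatty acid 2-hydroxylase) spans chr8:111345135-111393824 on the minus strand with 7 exons. Gal3st1 (galactosylceramide sulfotransferase) spans chr11:3983636-3999326 on the plus strand with 4 exons. Cers2 (the ceramide synthase for very long acyl chains) spans chr3:95314791-95323599 on the plus strand with 11 exons, and 5.96% of its exonic bases overlap the antisense gene 6330562C20Rik or Setdb1. Aspa (aspartoacylase) spans chr11:73304992-73329596 on the minus strand with 3 exons. Galc (galactosylceramidase) spans chr12:98202294-98259459 on the minus strand with 7 exons, and 2.69% of its exonic bases overlap the antisense gene Gm47439. Arsa (arylsulfatase A) spans chr15:89472476-89477425 on the minus strand with 9 exons, of whose bases 18.8% overlap the antisense gene C230037L18Rik. Psap (prosaposin, the precursor of the saposins) spans chr10:60277627-60302597 on the plus strand with 15 exons. Whether counting used strand is not given in the sources used here, so reads of these antisense partners may be part of the values of Cers2, Galc and Arsa. Near-identical copies are a small concern: of the 50-base words in the members' transcripts, 0.0401% of those of Galc and none of those of the other members occur in another annotated gene.

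Because DNA methyltransferases act on cytosine in the dinucleotide CG, the 250 bases upstream of the most 5′ RefSeq start (build GRCm38.p6) are shown for 3 members that were lower in Dnmt1 CKO cortex, Ugt8a, Gal3st1 and Aspa, and for Galc, which degrades the product of Ugt8a. Methylation was not measured in these samples. Capitals mark each CG. The windows are chr3:125938653-125938902 (minus strand), chr11:3983386-3983635 (plus), chr11:73324638-73324887 (minus, inside the longest annotated gene model) and chr12:98259460-98259709 (minus, across an exon of the antisense gene Gm47439), each read 5′ to 3′ on the strand of the gene.
Ugt8a: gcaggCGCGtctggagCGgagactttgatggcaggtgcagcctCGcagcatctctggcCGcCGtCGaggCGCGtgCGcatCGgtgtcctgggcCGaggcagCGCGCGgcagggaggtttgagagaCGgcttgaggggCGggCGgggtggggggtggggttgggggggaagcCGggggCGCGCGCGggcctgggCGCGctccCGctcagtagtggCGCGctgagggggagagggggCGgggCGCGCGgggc
Gal3st1: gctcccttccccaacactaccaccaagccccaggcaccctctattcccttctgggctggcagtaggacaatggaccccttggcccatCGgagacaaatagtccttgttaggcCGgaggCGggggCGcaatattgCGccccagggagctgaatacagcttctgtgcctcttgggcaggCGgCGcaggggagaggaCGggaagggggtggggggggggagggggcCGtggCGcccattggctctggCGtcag
Aspa: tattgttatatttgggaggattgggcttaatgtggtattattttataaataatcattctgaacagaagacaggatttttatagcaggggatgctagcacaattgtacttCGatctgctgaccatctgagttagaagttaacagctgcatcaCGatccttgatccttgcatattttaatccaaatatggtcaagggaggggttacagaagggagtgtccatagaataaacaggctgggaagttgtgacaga
Galc: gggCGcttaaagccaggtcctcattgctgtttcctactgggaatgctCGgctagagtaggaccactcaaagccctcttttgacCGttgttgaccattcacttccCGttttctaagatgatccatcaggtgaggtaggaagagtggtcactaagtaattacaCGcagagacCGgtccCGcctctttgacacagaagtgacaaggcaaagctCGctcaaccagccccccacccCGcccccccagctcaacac

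These windows differ widely in CG. Ugt8a holds 32 CG and Cers2 24, which 4.36% and 11.7% of 27025 RefSeq promoter windows of this length reach or exceed, where the median window holds 6. Gal3st1 holds 11, Galc 9 and Aspa 2. The windows of Psap and Arsa hold 16 and 4, and Fa2h had no entry. The window of Cers2 reaches into an annotated first exon of the gene and is not printed, nor are those of Psap and Arsa, which did not move. The genes that fell in the Dnmt1 line, described next, thus include both the most and the fewest CG among the 7 windows. Short words for factors of the oligodendrocyte lineage were searched on both strands. The SOX-type words ACAAAG and ACAATG occur in 16.5% and 10.9% of all windows, and here only ACAATG was found, once, in Gal3st1. The MYRF-type words CTGGCAC and CTGGTAC occur in 4.16% and 1.8%, and CTGGTAC was found once, in Psap. The E-box word CAGCTG occurs in 12.7% and was found once, in Aspa. A match describes letters only, and a missing match says only that the word is not in this window.

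In Dnmt1 CKO cortex the synthesis genes and Aspa were lower than in littermate controls, and the breakdown genes did not pass the test. Ugt8a, Fa2h and Aspa were at 28.7% to 30.9% of control, and Gal3st1 and Cers2 at 55.2% and 56.6%. Galc, Arsa and Psap were at 101% to 102%. Of the 8 members, 5 passed 10% FDR, all lower (limma on log2(FPKM + 0.1), Benjamini-Hochberg over all rows tested), against 3.15% of all rows in either direction and 2.3% lower. In the same 5, each CKO library lay below each control library, which held for 14.4% of all rows. The median log2 fold change was −0.83 over the members and −0.02 over all rows. The members were chosen with earlier results of these data known, so these contrasts with all rows are not independent of the choice. The scale adds 0.1 FPKM to each value and so understates changes of low genes, and a single gene with 3 against 3 mice cannot go below p = 0.1 in an exact permutation test.

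**Figure D1:**
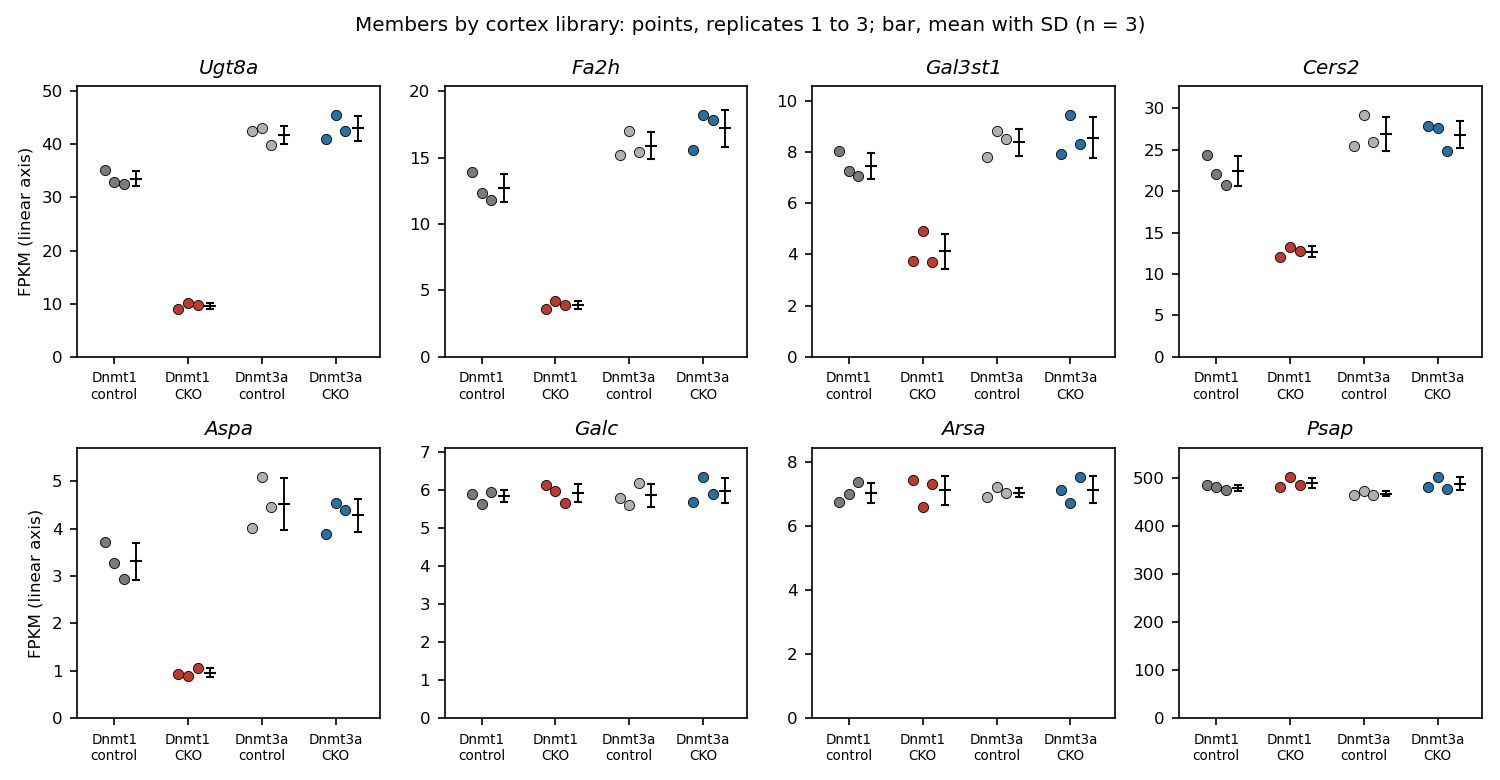
Level of each member in FPKM (linear axis from 0) in the 12 cortex libraries, with points for replicates 1 to 3 of each group and a bar for the mean with SD (n = 3). The Dnmt1 CKO points of Ugt8a, Fa2h, Gal3st1, Cers2 and Aspa lie below the points of the other groups, while Galc, Arsa and Psap are level across groups.

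Ugt8a, whose product adds galactose to ceramide and so commits it to the myelin galactolipids, was at 35.2, 32.9 and 32.6 FPKM in the Dnmt1 control libraries. It was at 9.04, 10.1 and 9.72 FPKM in the CKO libraries. The highest CKO library was far below the lowest control, and the spread within each group was small beside the gap. With group means of 33.5 ± 1.41 and 9.62 ± 0.543 FPKM (SD, n = 3), the log2 fold change was −1.79 (SE 0.053, 95% interval −1.92 to −1.66, limma adjusted p = 0.0002).

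Fa2h, which hydroxylates the fatty acid of these lipids, was at 13.9, 12.3 and 11.8 FPKM in control and at 3.62, 4.21 and 3.93 FPKM in CKO libraries. The groups did not overlap. The means were 12.7 ± 1.08 and 3.92 ± 0.298 FPKM, a log2 fold change of −1.67 (SE 0.084, 95% interval −1.87 to −1.46, limma adjusted p = 0.0011).

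Cers2, which makes the very long chain ceramides that Ugt8a and other transferases use, was at 24.4, 22.1 and 20.8 FPKM in control and at 12, 13.3 and 12.8 FPKM in CKO libraries. All CKO libraries were below all controls, with a smaller gap than for Ugt8a. Its log2 fold change was −0.81 (SE 0.069, 95% interval −0.98 to −0.64, limma adjusted p = 0.0051), between means of 22.4 ± 1.8 and 12.7 ± 0.653 FPKM.

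Gal3st1, the enzyme that turns galactosylceramide into sulfatide, was at 8.04, 7.28 and 7.06 FPKM in control and at 3.75, 4.9 and 3.71 FPKM in CKO libraries. CKO replicate 2 was the highest of its group yet below every control. The means were 7.46 ± 0.511 and 4.12 ± 0.679 FPKM, a log2 fold change of −0.85 (SE 0.12, 95% interval −1.15 to −0.55, limma adjusted p = 0.031). This call was the least secure of the 5. It was lost without Dnmt1 control replicate 1 (limma adjusted p = 0.11), control replicate 2 (0.13), CKO replicate 1 (0.13) or CKO replicate 3 (0.12), while the log2 fold change stayed between −0.98 and −0.73 over all alternatives (adjusted p from 0.00074 to 0.15).

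Aspa, which in oligodendrocytes splits N-acetylaspartate from neurons and so frees acetate for lipid synthesis, was the lowest member. It was at 3.71, 3.27 and 2.94 FPKM in control and at 0.93, 0.892 and 1.07 FPKM in CKO libraries. No CKO library reached the level of a control. The means were 3.31 ± 0.391 and 0.963 ± 0.0916 FPKM, a log2 fold change of −1.68 (SE 0.11, 95% interval −1.95 to −1.40, limma adjusted p = 0.0024). With a pseudocount of 1 FPKM it was −1.13.

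The lysosomal genes showed no such gap. Galc, which removes galactose from galactosylceramide, was at 5.89, 5.64 and 5.95 FPKM in control and at 6.13, 5.98 and 5.65 FPKM in CKO libraries (log2 fold change 0.02, 95% interval −0.10 to 0.15, limma adjusted p = 0.9). The values of both groups were interleaved. Arsa, which removes sulfate from sulfatide, was at 6.73, 6.99 and 7.36 FPKM in control and at 7.43, 6.6 and 7.3 FPKM in CKO libraries (0.02, 95% interval −0.14 to 0.17, adjusted p = 0.95). The groups overlapped here too. Psap, by far the most abundant member, was at 487, 482 and 475 FPKM in control and at 482, 503 and 487 FPKM in CKO libraries (0.03, 95% interval −0.10 to 0.16, adjusted p = 0.87). The lowest bound among the 3 intervals, −0.14, is far from the decreases of the synthesis genes. Arsa carries the largest antisense overlap of the members, and Galc and Psap little or none.

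Without Dnmt1 control replicate 3, the only Dnmt1 library with Ddx3y near 0, the same number of members passed, 5. The log2 fold changes of Ugt8a, Fa2h, Cers2, Aspa and Gal3st1 were then −1.81, −1.71, −0.87, −1.76 and −0.89 (limma adjusted p from 0.0014 to 0.093).

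**Figure D2:**
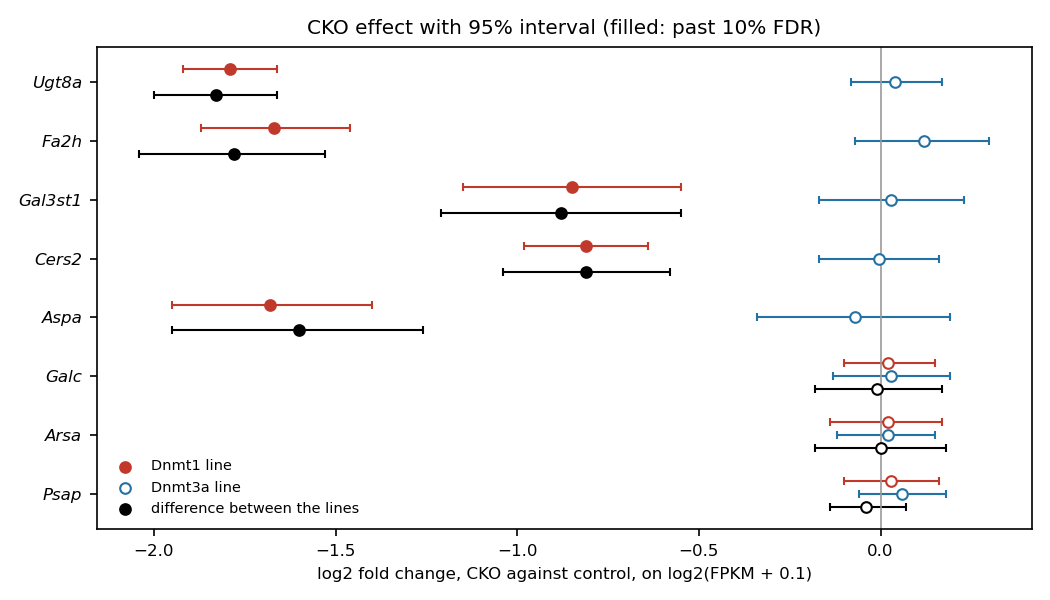
Log2 fold change of each member, CKO against control on log2(FPKM + 0.1), in the Dnmt1 line (red), the Dnmt3a line (blue) and the difference between the lines (black), with 95% intervals and filled points for values past 10% FDR. Ugt8a, Fa2h and Aspa lie between −1.79 and −1.67 in the Dnmt1 line, Gal3st1 and Cers2 at −0.85 and −0.81, and all values of the Dnmt3a line and of Galc, Arsa and Psap lie near 0.

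The decreases were of unequal size among the members. The 95% intervals of Ugt8a, Fa2h and Aspa, whose upper bounds were −1.66, −1.46 and −1.40, did not overlap those of Gal3st1 and Cers2, whose lower bounds were −1.15 and −0.98. FPKM is scaled to transcript length, so ratios of members within a library can be compared; the 4 ratios given here were chosen after the values were seen. Cers2 relative to Ugt8a was 0.693, 0.673 and 0.638 in Dnmt1 control libraries and 1.33, 1.32 and 1.32 in CKO libraries. Ugt8a thus had the higher level in every control and Cers2 in every CKO library. Gal3st1 relative to Ugt8a was 0.222 ± 0.00595 in control and 0.427 ± 0.053 in CKO libraries (SD, n = 3).

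In the Dnmt1 line, transcript ratios of synthesis to breakdown genes fell. Ugt8a relative to Galc, the enzymes that make and degrade galactosylceramide, was 5.97, 5.82 and 5.48 in control and 1.47, 1.69 and 1.72 in CKO libraries. Gal3st1 relative to Arsa, which add and remove the sulfate, was 1.19, 1.04 and 0.959 in control and 0.505, 0.743 and 0.507 in CKO libraries. The groups did not overlap in any of the 4 ratios in the Dnmt1 line (two-sided exact permutation test, p = 0.1 for each, the smallest that 3 against 3 allows). In the Dnmt3a line the groups overlapped in all 4, with Ugt8a over Galc at 7.15 ± 0.656 in control and 7.19 ± 0.0266 in CKO libraries. Without Dnmt3a control replicate 2 its control mean was 6.88, and all 4 ratios still overlapped. These are transcript ratios of whole cortex, where the genes of a ratio may be read from different cells, so they do not describe oligodendrocytes alone. Neither enzyme activity nor lipid was measured.

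The decreases of the synthesis genes came with a decrease of myelin protein transcripts. All 9 myelin protein reference genes, Mbp, Mag, Mog, Mobp, Cnp, Mal, Cldn11, Opalin and Ermn, fell in Dnmt1 CKO cortex, with log2 fold changes from −2.45 to −1.38 and a median of −2.03 (9 of 9 past 10% FDR by limma). Their summed level was 1465 to 1727 FPKM in Dnmt1 control and 451 to 529 FPKM in CKO libraries. Relative to the mean log2 level of these 9 genes, Ugt8a was at −0.83 ± 0.06 in control and −0.67 ± 0.044 in CKO libraries, a difference of 0.17. Fa2h and Aspa differed by 0.29 and 0.28 on this scale, so on it all 3 fell nearly as much as the mean of the myelin protein transcripts. At a pseudocount of 1 FPKM the differences of Ugt8a, Fa2h and Aspa were 0.10, 0.33 and 0.67, so that of Aspa depends on the pseudocount. With Mbp alone as the reference the differences of Ugt8a, Fa2h and Aspa were −0.12, −0.00 and −0.01.

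Gal3st1 and Cers2 fell less than the myelin protein genes, and were higher relative to them by 1.11 and 1.14 (0.82 and 0.85 against Mbp alone). Galc, Arsa and Psap were higher by 1.98, 1.97 and 1.98. For each member but Aspa, all CKO libraries lay above all control libraries in this relative level. The reference itself fell, so a gene without change rises on this scale. The share of all rows with such a separation was not computed. In the Dnmt3a line the relative levels of the 8 members differed by −0.11 to 0.08, and the groups overlapped for each. Without Dnmt3a control replicate 2 these differences were −0.11 to 0.06.

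**Figure D3:**
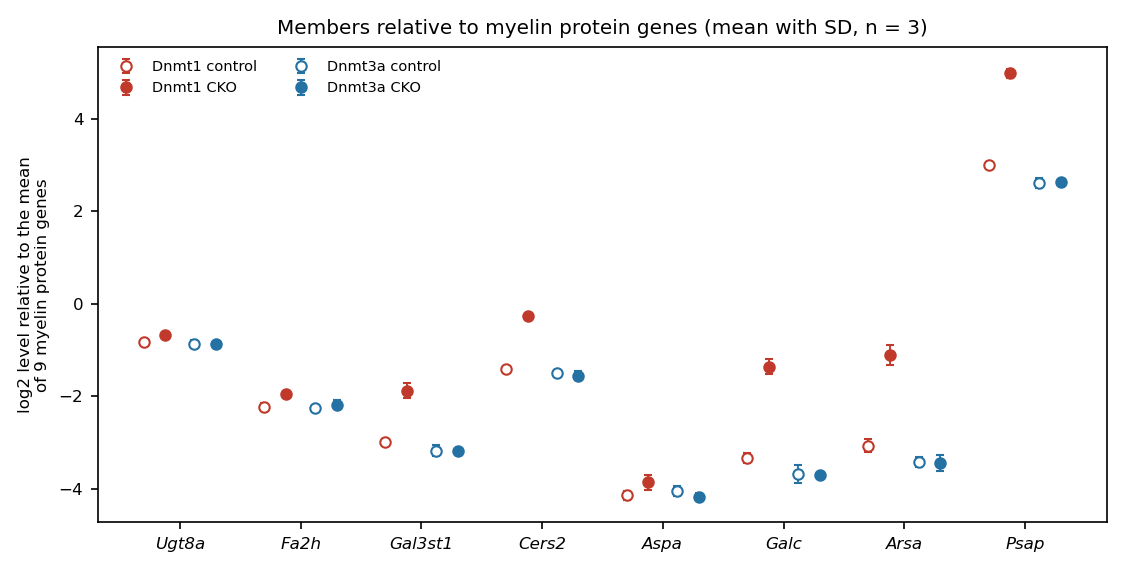
Log2 level of each member relative to the mean of 9 myelin protein genes in the same library, as mean with SD (n = 3), for control (open) and CKO (filled) groups of the Dnmt1 (red) and Dnmt3a (blue) lines. In the Dnmt1 line the open and filled points are close for Ugt8a, Fa2h and Aspa (0.17 to 0.29 apart), further apart for Gal3st1 and Cers2 (1.11 and 1.14) and furthest for Galc, Arsa and Psap (1.97 to 1.98).

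In the Dnmt3a line no member passed 10% FDR (0 of 8, where limma called 0.0142% of all rows). None had an unadjusted p under 0.05, and only 1037 of all 14115 rows did. Ugt8a was at 42.4, 43 and 39.8 FPKM in Dnmt3a control and at 40.9, 45.5 and 42.5 FPKM in Dnmt3a CKO libraries, with overlapping groups. Its log2 fold change was 0.04 (95% interval −0.08 to 0.17, limma adjusted p = 0.86). The lower bound is small beside the −1.79 of the Dnmt1 line.

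The other synthesis genes were alike in this. Fa2h was at 15.2, 17 and 15.4 FPKM in control and 15.6, 18.2 and 17.8 FPKM in CKO libraries (log2 fold change 0.12, 95% interval −0.07 to 0.30). Gal3st1 was at 7.81, 8.83 and 8.5 against 7.91, 9.45 and 8.31 FPKM (0.03, −0.17 to 0.23), and Cers2 at 25.5, 29.2 and 26 against 27.9, 27.6 and 24.9 FPKM (−0.004, −0.17 to 0.16). Aspa, at 4.02, 5.1 and 4.45 against 3.89, 4.55 and 4.4 FPKM, had the widest interval (−0.07, −0.34 to 0.19). In all 4 genes control and CKO libraries overlapped, with limma adjusted p from 0.75 to 0.99.

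Among the breakdown genes, Galc was at 5.78, 5.6 and 6.19 FPKM in Dnmt3a control and 5.69, 6.35 and 5.89 FPKM in CKO libraries, and Arsa at 6.9, 7.2 and 7.03 against 7.12, 6.72 and 7.54 FPKM. Both overlapped between groups. Psap was at 465, 474 and 465 FPKM in control and at 483, 504 and 479 FPKM in CKO libraries. It was the only member whose groups were separate in this line, as were those of 12.8% of all rows in either direction, and its log2 fold change of 0.06 did not pass the test (95% interval −0.06 to 0.18, limma adjusted p = 0.78). Without the library labelled Dnmt3a control replicate 2, still 0 members passed, and the log2 fold changes of Ugt8a, Fa2h, Gal3st1, Cers2 and Aspa were 0.06, 0.17, 0.07, 0.06 and 0.01. Those of Arsa and Psap were 0.03 and 0.07, and that of Galc turned from 0.03 to just below 0.

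The effect of the CKO itself differed between the lines for the 5 genes that fell in the Dnmt1 line. In an interaction test over 12 libraries (limma), the Dnmt1 effect was lower than the Dnmt3a effect by −1.83 for Ugt8a (SE 0.078, adjusted p = 6.8e-07), −1.78 for Fa2h (SE 0.12, adjusted p = 1.1e-05) and −1.60 for Aspa (SE 0.16, adjusted p = 0.00026) on the log2 scale. For Gal3st1 and Cers2 the differences were −0.88 (SE 0.15, adjusted p = 0.012) and −0.81 (SE 0.1, adjusted p = 0.0018). Among all rows, 2.13% passed this test in either direction, and 1.83% passed it with a negative difference. For Galc, Arsa and Psap the differences were between −0.04 and 0.00, with adjusted p of 0.86 or more. Without the library labelled Dnmt3a control replicate 2 the 5 calls held, with differences of −1.85, −1.83, −1.69, −0.92 and −0.87 for Ugt8a, Fa2h, Aspa, Gal3st1 and Cers2 (limma adjusted p from 1e-05 to 0.027).

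Olig1, the locus that carries cre, moved too. In the Dnmt1 line it averaged 46.5 ± 4.46 FPKM in controls against 20.3 ± 1.81 FPKM in CKO mice (log2 fold change −1.19, limma adjusted p = 0.0043), and in the Dnmt3a line 47.4 against 33.9 FPKM (−0.49, adjusted p = 0.66). The part of the Olig1 allele in the members' changes was not tested.

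The control groups of the lines were also set against each other, a comparison added after the values were seen. Ugt8a was at 39.8 to 43 FPKM in the Dnmt3a controls and at 32.6 to 35.2 FPKM in the Dnmt1 controls, and Fa2h, Cers2 and Aspa were likewise higher in every Dnmt3a control library, as were 3.98% of all rows. The log2 differences were 0.31 for Ugt8a, 0.32 for Fa2h, 0.26 for Cers2 and 0.44 for Aspa. For Gal3st1 the difference was 0.17 and the groups overlapped. No member passed 10% FDR (limma adjusted p from 0.28 for Ugt8a upwards), and 0% of all rows did, though 1154 rows had an unadjusted p under 0.05, among them Ugt8a, Fa2h, Cers2 and Aspa. The myelin protein genes were higher in the Dnmt3a controls as well, with a median log2 difference of 0.34 and 9 of 9 above 0. Without Dnmt3a control replicate 2 the log2 differences of Ugt8a, Fa2h, Cers2, Aspa and Gal3st1 were 0.29, 0.27, 0.20, 0.35 and 0.13, with 0 called. Line and litter cannot be told apart in this comparison.

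Ordered by group mean, Ugt8a and Fa2h ran from Dnmt3a CKO through Dnmt3a control and Dnmt1 control down to Dnmt1 CKO, and only the first of these neighbours overlapped. Aspa and Cers2 had the Dnmt3a groups in the other order, again with overlap, above Dnmt1 control and Dnmt1 CKO without overlap. In Gal3st1 only Dnmt1 CKO stood apart from its neighbour. Galc and Arsa overlapped at each step of the order, with group means from 5.83 to 5.98 and from 7.03 to 7.13 FPKM. Psap ran from 490.3 FPKM in Dnmt1 CKO to 468 FPKM in Dnmt3a control, and only its last step, from Dnmt1 control, was without overlap. Of all rows, 14.4% had each Dnmt1 CKO library below each Dnmt1 control, and 3.98% had each Dnmt3a control above each Dnmt1 control. The shares for Dnmt3a CKO above Dnmt1 control and for the last step of Psap were not computed.

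The wider pathway was examined in 8 lists with 111 symbols, of which 106 were found and 100 tested. The lists, too, were chosen with earlier results of these data known. In Dnmt1 CKO cortex 9 of the 100 were lower and 0 higher at 10% FDR (limma; 3.15% of all rows were called), and their median log2 fold change was −0.05. Of the 100, 21 in the Dnmt1 line and 15 in the Dnmt3a line had an unadjusted p under 0.05 by limma. Of all 14115 rows, 2113 and 1037 did. In the Dnmt3a line 0 of 100 passed 10% FDR. The interaction was called for 8, all lower in the Dnmt1 line, as it was for 1.83% of all rows. Without Dnmt3a control replicate 2 these counts were 0 and 8. The genes that fell were in chain elongation, in transfer and sorting of lipids, and singly elsewhere.

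Very long chain fatty acid elongation had 3 of 12 genes lower (median −0.17). Elovl1, an elongase of saturated very long chains, fell from 7.57 ± 0.433 to 3.78 ± 0.0402 FPKM (log2 fold change −0.98, SE 0.056, limma adjusted p = 0.0016). Elovl7 fell from 3.85 ± 0.3 to 1.93 ± 0.199 FPKM (−0.96, adjusted p = 0.0095), and Elovl6, which extends palmitate, from 13.5 ± 0.327 to 9.97 ± 0.569 FPKM (−0.44, adjusted p = 0.014). The CKO libraries of all 3 genes lay below their controls.

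Lipid transfer and sorting had 4 of 8 lower (median −0.35). Mal, a proteolipid of glycolipid-rich myelin membrane that also stands in the myelin protein list, fell from 51.5 ± 3.64 to 12.1 ± 0.792 FPKM (log2 fold change −2.08, limma adjusted p = 0.00021). Pllp (plasmolipin) fell from 21.3 ± 2.23 to 10.9 ± 0.869 FPKM (−0.95, adjusted p = 0.008), Gltp, the glycolipid transfer protein, from 24.3 ± 1.76 to 14.1 ± 1.03 FPKM (−0.78, adjusted p = 0.0068), and Cmtm5 from 19.6 ± 0.662 to 13.8 ± 0.823 FPKM (−0.50, adjusted p = 0.0097).

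Ceramide synthesis had 1 of 14 lower beside Cers2, with a median of −0.02. This was Degs1, the dihydroceramide desaturase, which fell from 30.7 ± 0.993 to 25.6 ± 0.931 FPKM (log2 fold change −0.26, limma adjusted p = 0.037) and lost its call without Dnmt1 control replicate 2 (adjusted p = 0.14), CKO replicate 1 (0.12) or CKO replicate 3 (0.11). Its difference between the lines did not pass (−0.29, limma adjusted p = 0.1 after rounding) but lay at the threshold, with adjusted p from 0.051 to 0.25 over the alternatives, and it passed in 8 of 24 of them. Lysosomal sphingolipid breakdown had 1 of 15 lower (median −0.04), the sialidase Neu4, from 3.71 ± 0.0403 to 2.33 ± 0.123 FPKM (−0.65, adjusted p = 0.0072). The rest of this list, like Galc, Arsa and Psap, did not pass.

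The other 4 lists had no call in the Dnmt1 line by limma, and 2, 1, 1 and 1 of their genes, in the order given here, had an unadjusted p under 0.05. Of all 14115 rows, 2113 did in this line. Among sugar and sulfate donors (0 of 13, median −0.04), Bpnt1 was at 27.1 and 26.5 FPKM on average in control and CKO cortex, and Papss1, which makes the sulfate donor used by Gal3st1, at 27.3 and 24.5 FPKM (log2 fold change −0.15, limma adjusted p = 0.35). In the glucosylceramide and ganglioside branch (0 of 12, median −0.02), St3gal5 and B4galnt1 had log2 fold changes of −0.02 and 0.05. In the sphingomyelin branch and ceramide turnover (0 of 15, median −0.04), Smpd3 and Samd8 had 0.07 and 0.03. In N-acetylaspartate metabolism (0 of 11, median −0.10), Nat8l, which makes the substrate of Aspa in neurons, was at 35.8 and 34.9 FPKM (−0.04), and Acss2, which activates acetate, at 13.4 and 12.3 FPKM (−0.13).

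**Figure D4:**
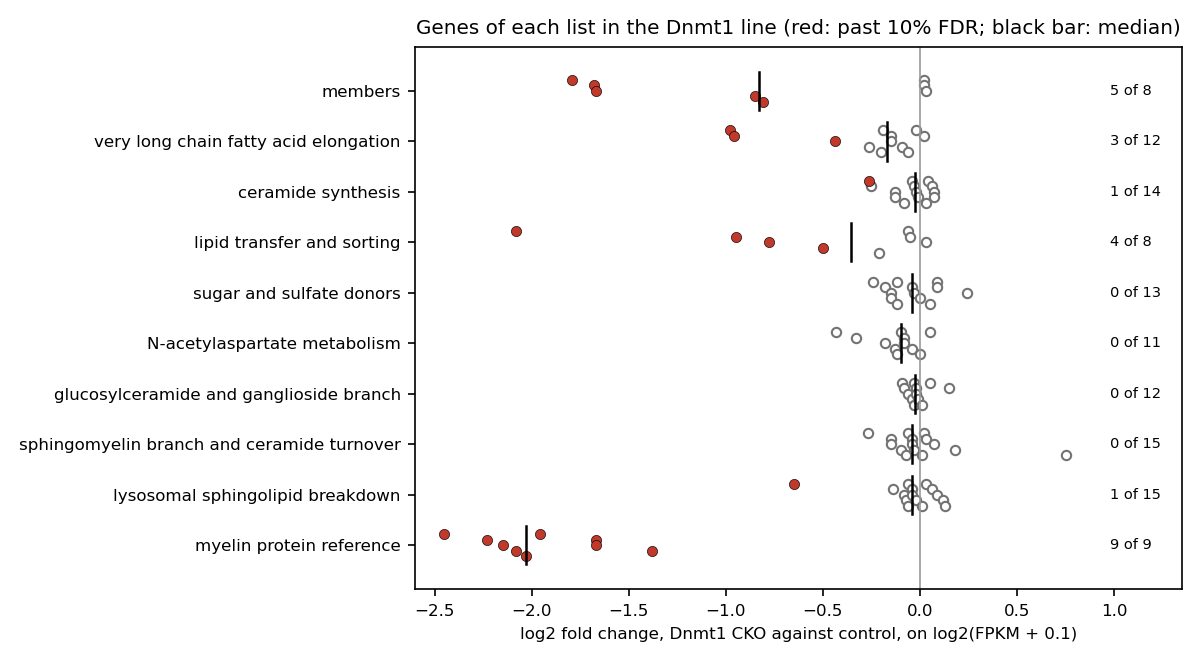
Log2 fold change of each tested gene in Dnmt1 CKO against control cortex on log2(FPKM + 0.1), by list, in red where past 10% FDR and with a black bar at the median. The numbers at the right count called genes of those tested, from 9 of 9 myelin protein genes and 5 of 8 members to 0 in the donor, ganglioside, sphingomyelin and N-acetylaspartate lists.

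For each member that fell, the genes whose centred log2 values over the 12 libraries were nearest were sought among 12844 candidates with a mean of at least 1 FPKM, by root mean square difference. Ugt8a was nearest to Plekhh1 (0.052), Cldn11 (0.069) and Mbp (0.076). Fa2h had the same 3 in another order, with Mbp first (0.052), and Aspa too, at 0.119 to 0.124. Cers2 and Gal3st1 were both nearest to Tmem63a (0.072 and 0.082), followed by Tspan15 and Enpp6 for Cers2 and by Gltp and Mcam for Gal3st1. The nearest genes thus split the 5 members in the same way as the sizes of their decreases, which this measure includes.

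Markers of other cell types were read in the same libraries. In the Dnmt1 line limma called 3.15% of all rows, and 2113 of all 14115 rows had an unadjusted p under 0.05. Of 10 genes listed for oligodendrocyte progenitors, 5 were lower in Dnmt1 CKO cortex (Pdgfra, Gpr17, Olig2, Sox10 and Bcas1). Cspg4, Ptprz1, Lhfpl3, C1ql1 and Vcan did not pass (log2 fold changes −0.00062, −0.10, −0.21, −0.23 and 0.06). The paper uses Olig2 to mark oligodendrocytes and names Sox10 as a regulator of myelination, so the list is not limited to progenitors. The summed level of the 10 genes ran from 166 to 183 FPKM in control and from 124 to 132 FPKM in CKO libraries. The 10 neuronal genes had 0 calls by limma and 0 with an unadjusted p under 0.05, and summed to 1916 to 2075 and 1998 to 2066 FPKM. Of 10 astrocyte genes Gfap alone was called (log2 fold change 0.45), and 5 were below 0, with a median of −0.01 and sums of 922 to 955 and 915 to 934 FPKM. Aqp4 (−0.28) and Gja1 (−0.11) had an unadjusted p under 0.05 and did not pass. Of 10 microglial genes C1qa, C1qb and Trem2 were higher (0.34, 0.42 and 0.30), with sums of 145 to 152 and 158 to 169 FPKM. Of 10 endothelial genes Slc2a1 was higher (0.44, adjusted p = 0.041 from limma) and 7 were below 0, with a list median of −0.16 and sums of 124 to 133 and 128 to 132 FPKM. Cldn5, Slco1c1, Tek, Cdh5 and Esam, with log2 fold changes from −0.43 to −0.16, had an unadjusted p under 0.05 and did not pass the test. Choroid plexus genes, of 7 tested 0 called by limma and 1 with an unadjusted p under 0.05, summed to 195 to 369 and 139.8 to 322 FPKM. Of 6 tested genes of other brain regions Cbln1 was higher (0.32). In the Dnmt3a line, where no member was called, choroid plexus genes summed to 67 to 208 FPKM in control and 68.7 to 552 FPKM in CKO libraries. Astrocyte genes summed there to 928 to 963 and 1005 to 1073 FPKM, neuronal genes to 1910 to 1976 and 2007 to 2056 FPKM. Sums of endothelial genes were 121 to 131 and 137 to 144 FPKM. Those of progenitor genes were 161 to 171 and 165 to 179 FPKM, and of microglial genes 130.0 to 153 and 142 to 175 FPKM. None of these genes was called in that line by limma. No gene of the glial, neuronal, endothelial and choroid plexus lists was at 0 in any library, and their part in the members' changes was not tested.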

How the data were processed

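RNA-seq libraries were made from cortex of 12 mice with about 250 ng of total RNA each (TruSeq). The authors quantified reads on mm10 with Cufflinks (processing notes) and deposited 1 table of FPKM values per gene symbol. It holds no read counts, so no count test was run. Whether libraries were scaled further is not given in the sources used here.

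Groups were taken from the labels, and 0 columns lacked a sample. Of 23850 rows, 302 exact duplicates were removed, and the 14115 rows whose mean reached 0.5 FPKM were tested. Values were put on log2(FPKM + 0.1) and compared within each line with limma 3.58.1 in R 4.3.3 (eBayes, trend on), and p-values were adjusted by Benjamini-Hochberg at 10% FDR. Differences between lines were tested as an interaction over 12 libraries. The study compared CKO and littermates at the same FDR with Cuffdiff, which needs reads. The limma p-values rest on the spread between 3 mice per group, with each variance drawn toward a trend over all rows tested. The interaction and the comparison of the control groups pool this spread over 12 libraries. The procedure was tested on simulated data.

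Members and lists were chosen with earlier results of these data known. Genes were named by rule: the members, called genes of the pathway lists (in a list without calls the 2 most abundant), the myelin protein genes (1 of the list is not reported here and was left out of it), the 3 nearest genes of each called member, and Dnmt1, Dnmt3a and Olig1. Called marker genes and Ddx3y were named after their values were seen. Alternatives covered pseudocounts, filters, eBayes settings, scaling, summed rows, a replicate block, 1 model of 12 libraries, 5% FDR and each library left out. Positions came from GENCODE M21 and promoter windows from RefSeq (7 of 8 members matched). Python 3.11.15, numpy 2.4.6, pandas 2.3.3 and matplotlib 3.10.9 were used.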

Additional observations from a re-analysis of the deposited data

Results flagged for a closer look

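The CKO effect differed between the Dnmt1 and Dnmt3a lines, by limma's interaction test at 10% FDR, for 5 of the 8 members. The differences on the log2 scale were −1.83 for Ugt8a, −1.78 for Fa2h, −1.60 for Aspa, −0.88 for Gal3st1 and −0.81 for Cers2.

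The same test flagged 8 genes of the wider pathway lists. The differences were −2.15 for Mal, −1.05 for Elovl1, −0.99 for Elovl7, −0.91 for Pllp, −0.88 for Gltp, −0.66 for Cmtm5, −0.44 for Neu4 and −0.34 for Elovl6, each lower in the Dnmt1 line. The differences of Cmtm5 and Elovl6 lost their call when single libraries of either line were left out (adjusted p up to 0.12 and 0.15).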

How the results depend on the processing

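The number of members called was 4 or 5 in the Dnmt1 line, 0 in the Dnmt3a line and 5 in the interaction under every alternative run. The lost member was Gal3st1 each time. Replicate numbers did not pair the mice (correlations of same-numbered deviations from −0.079 to 0.035). With the replicate block, 4 members were called in the Dnmt1 line, Gal3st1 had an adjusted p of 0.15 and Degs1 of 0.11, and 162 rows were called in place of 444. At 5% FDR there were 263 rows, and without single libraries 199 to 341. In the Dnmt3a line 2 rows became 20 with no filter. The causes were not tested.

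Of 581 alternative values of members, 547 kept direction and call, 5 lost the call and 29, all of changes that had not passed, changed sign. Galc in the interaction was 0.03 with median-ratio scaling and 0.02 with quantile normalization, and Psap in the Dnmt1 line was −0.0014 with quantile normalization. With single libraries left out, the log2 fold changes in the Dnmt3a line ran from −0.00076 to 0.08 for Ugt8a, −0.05 to 0.08 for Gal3st1, −0.15 to 0.01 for Aspa, −0.04 to 0.06 for Cers2, −0.01 to 0.07 for Galc and −0.03 to 0.06 for Arsa. In the Dnmt1 line they ran from −0.0029 to 0.05 for Galc and −0.02 to 0.07 for Arsa. In the interaction they ran from −0.05 to 0.04 for Galc and −0.04 to 0.05 for Arsa.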
